A study of Homo sapiens with 40 samples.

Results

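BTG1, BTG2, BTG3, TOB1 and TOB2 encode antiproliferative proteins of the BTG/TOB family, and their mRNAs were followed through 40 RNA-Seq libraries of HEK293 cells, an established human embryonic kidney cell line. The members were taken by gene symbol and are 5 of the 55765 symbols counted. BTG4, the remaining family symbol, held 0 to 2 counts per library and was not analysed further. In the RNA immunoprecipitation experiment (RIP-Seq), total RNA and the RNA recovered with antibodies against endogenous eIF4A1, eIF4A2 or DDX6 (IP) were sequenced from cells that received no siRNA, 3 libraries in each group. In the gradient experiment, cells received control siRNA or an siRNA against CNOT1, and the input RNA, the pooled subpolysomal fractions 1 to 5 and the pooled polysomal fractions 6 to 11 of a sucrose gradient gave 4 libraries in each group. The TNRC6 experiment used total RNA of cells given control siRNA or siRNAs against both TNRC6A and TNRC6B, 2 libraries in each group. Per the study's methods a single siRNA was used for each target. No IP with a control antibody was among the libraries analysed here, and nothing in the labels says whether replicates were separate cultures, so that p-values measure the spread between these libraries, which may be technical.

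BTG and TOB proteins share an N-terminal domain that binds the deadenylases CNOT7 and CNOT8, catalytic subunits of the Ccr4-Not complex, which shortens poly(A) tails and is assembled on the scaffold protein CNOT1. TOB proteins also bind the cytoplasmic poly(A)-binding protein PABPC1, and the family promotes deadenylation of mRNAs and slows cell proliferation when its members are expressed. Several of the mRNAs are themselves short-lived and inducible, and BTG2 is a well-known transcriptional target of p53.

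The members divide into pairs of close relatives and differ widely in their 3′UTRs. Among the proteins translated from the annotated coding sequences, BTG1 (171 residues) and BTG2 (158) were identical at 65.8% of aligned positions. TOB1 (345) and TOB2 (344) were identical at 66.2%. BTG3 (296) had no such close relative, with 25.4% to 36.6% identity to the others. Between these pairs identity was 35.1% to 36.7%, near that of BTG3 to BTG1 (36.6%) and to BTG2 (36.1%). In GRCh37/hg19, the build of the counts, BTG1 lies at chr12:92534054-92539622, BTG3 at chr21:18965971-18985263, TOB1 at chr17:48939584-48945339 and TOB2 at chr22:41829498-41842805, all on the minus strand, and BTG2 at chr1:203274619-203278730 on the plus strand. The 3′UTR was 3802 nt in BTG1, 2817 in TOB2, 2164 in BTG2, 757 in TOB1 and 440 in BTG3, against a median of 935 nt over 19021 genes. The 5′UTRs ran from 88 nt (BTG2) to 485 nt (TOB2) and held 1.81 to 2.89 of the study's A/G-only tetramers per 100 nt, against a median of 1.90.

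Stretches of 3′UTR known to bring Ccr4-Not to mRNAs through Pumilio proteins, AU-binding proteins or miRNAs were searched for on the transcribed strand, since the siRNA experiments lowered CNOT1 or the miRNA adaptors TNRC6A and TNRC6B. The Pumilio octamer TGTANATA occurred 4 times in BTG1 and in no other member. At least 1 such octamer was present in 24.03% of all 3′UTRs, and 2.68% of the 785 3′UTRs within 10% of BTG1's length held as many. Of the BTG1 octamers, 3 are shown because they set this mRNA apart from the other members (capitals mark the octamer, with 8 bases on either side, all in the 3′UTR and written 5′ to 3′ on the minus strand).
BTG1 chr12:92536756-92536779: agatgctcTGTATATAcatgttta
BTG1 chr12:92536405-92536428: ctgcaagaTGTACATAaaaatcac
BTG1 chr12:92534330-92534353: tatgggacTGTAAATAgagaaatc

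The pentamer ATTTA, the core of AU-rich elements, occurred in all members, 5 times in BTG1, 4 in TOB1, 3 in BTG3 and in TOB2, and 2 in BTG2, while 65.3% of all 3′UTRs held at least 1. The longer form TTATTTATT, which would contain the pentamer, occurred in no member and in 7.85% of all 3′UTRs. BTG3 packed its 3 pentamers into the shortest 3′UTR of the family, and 10.2% of 884 3′UTRs of similar length held as many. TOB1 came close, with its 4 in 757 nt, where 13.6% of 1007 3′UTRs of similar length held as many. At the lengths of BTG1, BTG2 and TOB2, 97.6%, 91.1% and 96.3% of 3′UTRs held at least 1. As many as in these members were held by 74.9%, 81.6% and 79.9%, so that their counts are the usual case for such long 3′UTRs. The pentamers of BTG3 are shown because BTG3 differed most from its relatives in the TNRC6 experiment (capitals mark the pentamer, minus strand).
BTG3 chr21:18966153-18966173: acttgagtATTTAtatattgt
BTG3 chr21:18966076-18966096: ctttgagaATTTActttatgg
BTG3 chr21:18966049-18966069: tgtaagttATTTAtatacaag

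Seed matches, the 7 bases complementary to miRNA bases 2 to 8, were searched for 6 miRNAs with RefSeq mature sequences (GRCh38.p14 table), and the members differed in which of them they matched. The miRNAs were chosen after the value of BTG3 in the TNRC6 experiment was seen, so that the shares below do not measure how unusual its matches are. hsa-miR-17-5p and hsa-miR-18a-5p each matched BTG3 at 1 site and no other member, and these seed matches occurred in 19.9% and 8.19% of all 3′UTRs and in 6.22% and 3.17% of those within 10% of BTG3's length. hsa-miR-92a-3p matched BTG2 at 2 sites and BTG1, TOB1 and TOB2 at 1 site each, with none in BTG3 (10.3% of all 3′UTRs). This match was present in 25.6% of 3′UTRs within 10% of BTG1's length and in 20.4% at TOB2's, but in 2.83% at BTG3's, so that its absence from BTG3 is the usual case for so short a 3′UTR. At TOB1's length 4.57% held the match. At BTG2's length 15.2% held at least 1, and 1.77% held as many as BTG2. Of the remaining miRNAs, hsa-miR-19b-3p matched BTG1 at 1 site (12.6% of all 3′UTRs), hsa-miR-16-5p matched BTG2 at 2 and TOB2 at 1 (19.9%), and hsa-let-7a-5p matched TOB2 at 1 (9.04%). The miRNAs are shown beside their sites (capitals mark the seed and its match). A match is a description of these letters, and miRNA levels were not analysed here.
hsa-miR-17-5p: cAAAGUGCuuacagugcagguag
BTG3 chr21:18966230-18966252: aaatatatGCACTTTagatattg
hsa-miR-18a-5p: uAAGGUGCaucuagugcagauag
BTG3 chr21:18966086-18966108: ttgttctaGCACCTTtgagaatt
hsa-miR-92a-3p: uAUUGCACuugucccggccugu
BTG2 chr1:203277617-203277639: cagtcactGTGCAATatgccccc
BTG2 chr1:203277928-203277950: gtagacttGTGCAATatatactg

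**Figure D1:**
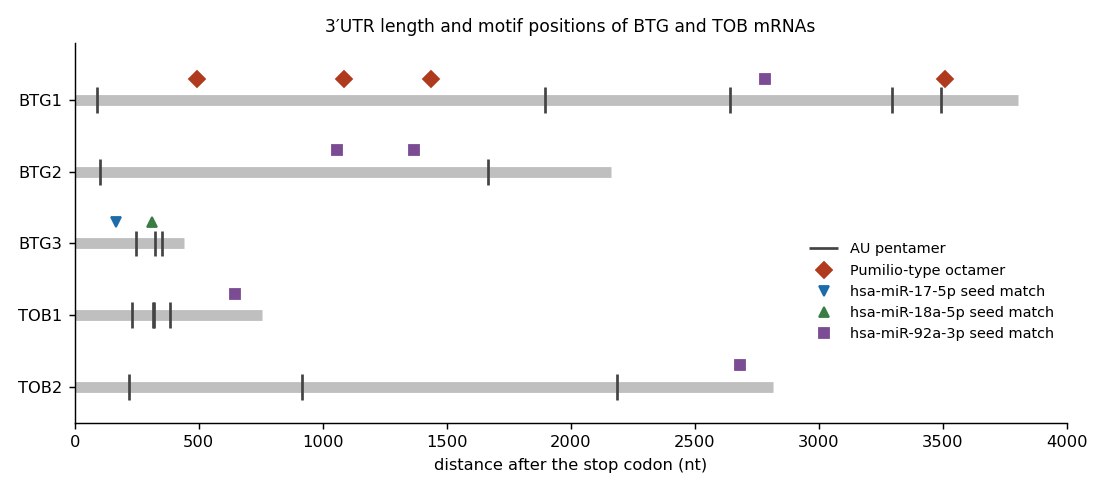
3′UTRs of the 5 members drawn to scale as grey bars, with distance after the stop codon in nt on the x axis, ATTTA pentamers as ticks, and Pumilio-type octamers (TGTANATA) and seed matches of 3 miRNAs as symbols. BTG1 carries 4 octamers along 3802 nt, and BTG3 carries 3 pentamers and matches to hsa-miR-17-5p and hsa-miR-18a-5p within 440 nt.

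Libraries held 15.4 to 46 M counts. The CNOT1 level was checked against the gradient labels and went against them in 2 libraries. In input RNA, CNOT1 was at 628 to 711 CPM (counts per 1 M of the library's normalised total) in control cells and 36.8 to 41.4 in knockdown cells, and in subpolysomal RNA at 235 to 317 and 73.5 to 89.6. In polysomal RNA it was at 470 to 501 CPM in 3 control libraries but 28.3 in the library labelled control siRNA replicate 3, and at 24.01 to 31.6 in 3 CNOT1 siRNA libraries but 631 in the library labelled CNOT1 siRNA replicate 3. The comparisons that use polysomal RNA are therefore given with and without both polysomal libraries of replicate 3. In the TNRC6 experiment, TNRC6A was at 178 and 189 CPM with control siRNA and 40.5 and 64.7 with TNRC6A/B siRNA, and TNRC6B at 67.6 and 73.1 against 17.7 and 26.3. The HEK293 markers VIM, NEFM and NEFL were present (minimum 66.1 CPM), PAX2 was near 0 (at most 1.57 CPM), and ALB, PTPRC, CD3E, HBB and INS, markers of other cell types, were at most 0.400 CPM.

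All 5 members were expressed in every group, with BTG3 the highest per length in control cells. On the RPKM scale (CPM per kilobase of exon), the level of BTG3 in input RNA with control siRNA was 24.9 ± 1.06 (SD, n = 4), above 87.3% of 13377 genes. BTG2 was at 15.0 ± 1.41 RPKM, BTG1 at 12.8 ± 0.617, TOB2 at 11.5 ± 0.788 and TOB1 at 11.1 ± 0.641. The last 2 differed by less than their spread. In the total RNA of the RIP-Seq experiment, BTG2 (25.2 ± 1.958 RPKM, n = 3) stood level with BTG3 (25.4 ± 2.14). Within a gene, levels are compared below in CPM, which are shares of a library. Shares show neither the number of cells nor the RNA per cell, and a rise cannot be told apart from a fall of other RNAs.

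**Figure D2:**
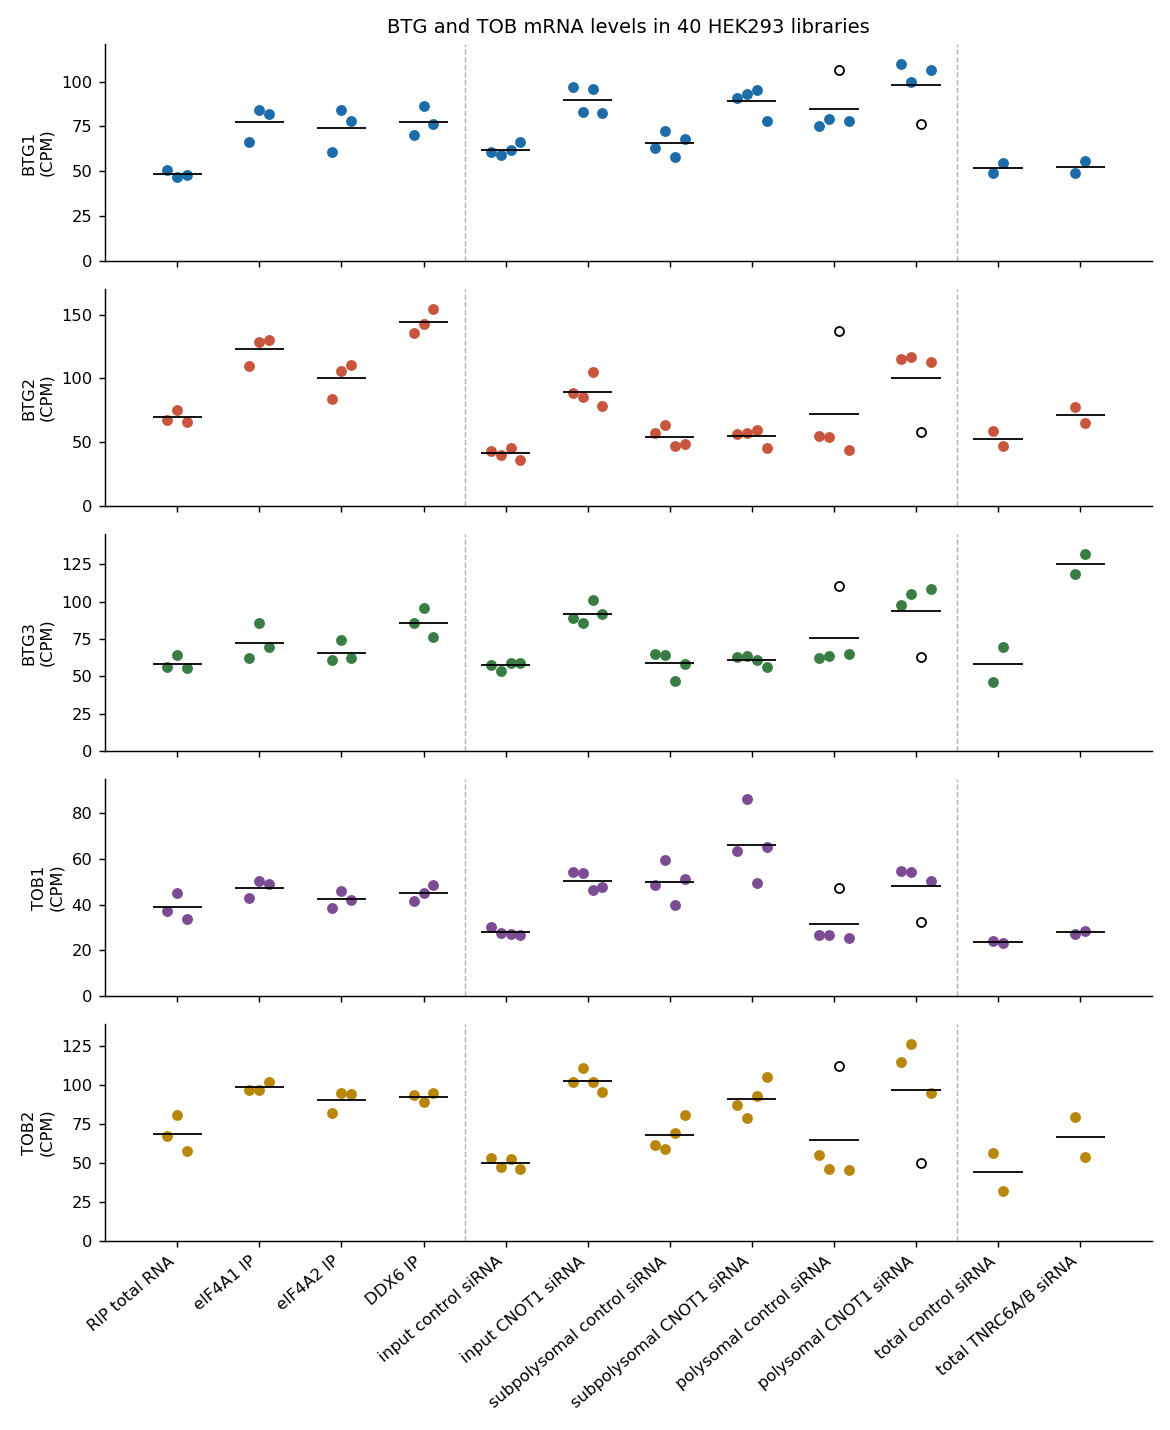
Level of each member in CPM (y axis, a panel per gene) in the 40 libraries, grouped by the 12 groups on the x axis; points are libraries, lines are group means, dashed lines part the 3 experiments, and open points are the polysomal libraries of replicate 3. The open point in the polysomal control group lies above its group's filled points for every gene, and the open point in the polysomal CNOT1 siRNA group lies below them.

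Across the 6 groups of the gradient experiment the order of the means differed between members. BTG2 ran from 101 ± 28.5 CPM in polysomal RNA with CNOT1 siRNA, through 89.3 ± 11.2 in input with CNOT1 siRNA, 72.4 ± 43.4 in polysomal control, 54.7 ± 6.29 and 54.1 ± 7.80 in the subpolysomal groups with CNOT1 and control siRNA, to 41.3 ± 3.90 in input control (SD, n = 4). The last step, from subpolysomal to input RNA of control cells, was the only one larger than the sum of the neighbours' SDs. TOB1, in contrast, was highest in subpolysomal RNA with CNOT1 siRNA, at 66.1 ± 15.2 CPM, followed by input with CNOT1 siRNA (50.5 ± 4.11), subpolysomal control (49.8 ± 7.98), polysomal with CNOT1 siRNA (47.9 ± 10.7), polysomal control (31.5 ± 10.7) and input control (27.9 ± 1.61). None of these neighbours was separated by more than the sum of their SDs. For TOB2 the order was input with CNOT1 siRNA (102 ± 6.31 CPM), polysomal with CNOT1 siRNA (96.3 ± 33.5), subpolysomal with CNOT1 siRNA (90.8 ± 11.0), subpolysomal control (67.6 ± 9.78), polysomal control (64.6 ± 31.9) and input control (49.7 ± 3.42), so the 3 groups with CNOT1 siRNA ranked above the 3 control groups and only the step between them exceeded the sum of the SDs. BTG1 and BTG3 ranged with all libraries from 62.1 to 98.1 and from 57.4 to 93.5 CPM, also with input control lowest and polysomal RNA with CNOT1 siRNA highest, and no neighbours were separated by more than the sum of their SDs. These orders include the polysomal libraries of replicate 3. Without them (n = 3), the polysomal control level was 50.8 ± 6.19 CPM for BTG2, below both of its subpolysomal groups, 26.2 ± 0.893 for TOB1 and 48.8 ± 5.36 for TOB2, both below input control, 77.4 ± 2.02 for BTG1 and 63.6 ± 1.22 for BTG3. The polysomal level with CNOT1 siRNA was then 115 ± 2.18 CPM for BTG2, 105 ± 5.06 for BTG1, 104 ± 5.47 for BTG3 and 112 ± 15.9 for TOB2, the highest of the 6 groups in each, and 53.2 ± 2.48 for TOB1, the highest but for subpolysomal RNA with CNOT1 siRNA.

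The RIP-Seq comparisons ask which mRNAs were recovered with each DEAD-box protein relative to total RNA. eIF4A1 is the helicase of the cap-binding complex eIF4F, eIF4A2 is its close paralog, and DDX6 is a repressor and decay factor that binds CNOT1. BTG1, BTG2 and TOB2 were higher in all 3 IPs than in total RNA, BTG3 in the DDX6 IP, and TOB1 in none. The 3 comparisons share the same total RNA libraries. Replicate numbers were taken to pair these libraries, and the paired fit is given where it changed a call. Total RNA replicate 1 does not settle this. Its deviation from the group mean had r of 0.262 with the same-numbered eIF4A1 IP library and up to 0.274 with another number. For DDX6 these values were 0.226 and 0.229, and for eIF4A2 0.184 and 0.0796.

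BTG2 had the highest log2 fold change of the family in the eIF4A1 and DDX6 IPs, and BTG1 had it in the eIF4A2 IP. BTG2 stood at 67.3, 75.7 and 65.6 CPM in total RNA, 110.0, 129 and 130.2 in the eIF4A1 IP, 83.6, 106 and 111 in the eIF4A2 IP and 135, 142 and 155 in the DDX6 IP. No IP library overlapped with total RNA, and the DDX6 libraries lay above all others. The log2 fold change over total RNA was 0.82 (SE 0.14, edgeR adjusted p = 0.000300) for eIF4A1, 0.53 (SE 0.14, edgeR adjusted p = 0.00657) for eIF4A2 and 1.05 (SE 0.14, edgeR adjusted p = 8.3e-05) for DDX6.

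BTG1, its close relative, was at 50.5, 46.6 and 48.0 CPM in total RNA, 66.1, 84.1 and 81.8 in the eIF4A1 IP, 60.8, 84.0 and 78.1 in the eIF4A2 IP and 70.4, 86.5 and 76.3 in the DDX6 IP. Every IP library was above every total RNA library, while the IPs overlapped with each other. Its log2 fold changes of 0.68, 0.62 and 0.68 (SE 0.15 each) all passed (edgeR adjusted p = 0.00213, 0.00384 and 0.00250).

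TOB2 was at 67.1, 80.7 and 57.4 CPM in total RNA, 96.9, 96.8 and 102 in the eIF4A1 IP, 82.1, 94.8 and 94.1 in the eIF4A2 IP and 93.2, 88.7 and 94.6 in the DDX6 IP. The IP libraries again all lay above total RNA, though total RNA replicate 2 came within a few CPM of the lowest. The log2 fold changes were 0.53, 0.40 and 0.43 (SE 0.14 each, edgeR adjusted p = 0.00554, 0.0249 and 0.0195). For eIF4A2 the edgeR call was lost without total RNA replicate 1 (adjusted p = 0.0774) or 3 (0.104), without eIF4A2 IP replicate 2 (0.0764) or 3 (0.0646), and without a filter on low counts (0.0955). For DDX6 it was lost in edgeR without total RNA replicate 1 (adjusted p = 0.0632) or 3 (0.0815), or without DDX6 IP replicate 1 (0.0511) or 3 (0.0556).

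BTG3, the member with the short 3′UTR, had 56.1, 64.2 and 55.3 CPM in total RNA, 62.1, 86.0 and 69.4 in the eIF4A1 IP, 60.8, 73.9 and 62.4 in the eIF4A2 IP and 85.4, 95.4 and 76.0 in the DDX6 IP. Only the DDX6 libraries were clear of total RNA, with a log2 fold change of 0.55 (SE 0.15, edgeR adjusted p = 0.00973). For eIF4A1 and eIF4A2 it was 0.31 and 0.17 (SE 0.15 each, edgeR adjusted p = 0.103 and 0.379). TOB1 stood at 37.1, 45.2 and 33.9 CPM in total RNA and at 38.7 to 50.2 across the 9 IP libraries, which overlapped with total RNA in every IP. Its log2 fold changes were 0.29, 0.13 and 0.22 (SE 0.14 each, edgeR adjusted p = 0.0951, 0.473 and 0.216). The eIF4A1 value passed in edgeR without total RNA replicate 2 (log2 0.42, adjusted p = 0.0363).

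Read against all genes, 3 of 5 members were higher in the eIF4A1 IP, where 26.1% of 17474 genes were, 3 of 5 in the eIF4A2 IP (24.5% of genes) and 4 of 5 in the DDX6 IP (22.7%). No member was lower in any IP. The members' median log2 fold change was 0.53, 0.40 and 0.55, against 0.04, 0.01 and 0.01 over all genes. With the replicate number as a block, all 5 members passed in the eIF4A1 IP, including BTG3 (log2 0.30, edgeR adjusted p = 0.0136) and TOB1 (log2 0.29, edgeR adjusted p = 0.0271), where 32.4% of genes then passed.

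Between the IPs, BTG2 was lower with eIF4A2 than with DDX6, the only member that differed. Its log2 difference was -0.53 (SE 0.14, edgeR adjusted p = 0.0194), and the libraries did not overlap. Lower with eIF4A2 than with DDX6 were 11.3% of genes (1969), a count that fell to 723 without eIF4A2 IP replicate 1, 742 without DDX6 IP replicate 2 and 1193 without eIF4A2 IP replicate 3. This call was lost in edgeR without eIF4A2 IP replicate 1 (adjusted p = 0.0879) or DDX6 IP replicate 2 (0.0555) or 3 (0.0646). BTG3 differed in the same comparison by -0.38 (SE 0.15), short of the threshold (edgeR adjusted p = 0.0878) but past it with the replicate block (edgeR adjusted p = 0.00642), where 22% of genes were lower. Between eIF4A2 and eIF4A1 no member differed (log2 differences of -0.30 for BTG2 to -0.06 for BTG1, edgeR adjusted p = 0.283 to 0.876) and 1.06% of genes did. Between DDX6 and eIF4A1 the log2 differences ran from -0.10 (TOB2) to 0.24 (BTG3), with no member past the edgeR threshold (adjusted p = 0.483 to 0.992) and 0.0916% of genes.

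**Figure D3:**
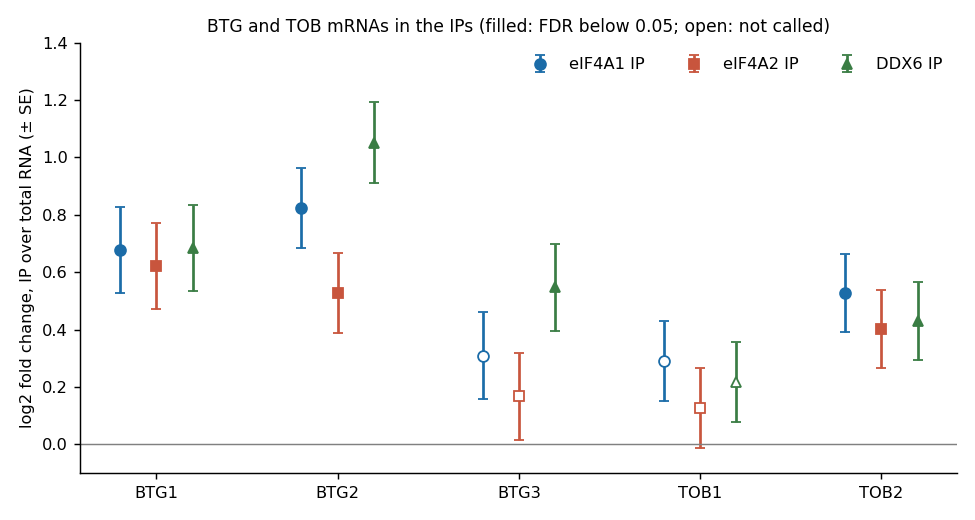
Log2 fold change of each IP over total RNA (y axis, bars are 1 SE, n = 3 libraries per group) for the 5 members (x axis); filled symbols passed an edgeR adjusted p of 0.05 and open symbols did not. BTG2 in the DDX6 IP is highest at 1.05, BTG3 is filled for DDX6 alone, and all 3 symbols of TOB1 are open.

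CNOT1 siRNA was used to ask how mRNA levels and polysome association depend on the scaffold of Ccr4-Not. In input RNA all 5 members rose, between 1.46-fold (BTG1) and 2.19-fold (BTG2). No library with CNOT1 siRNA overlapped with a control library for any of them, and how many of all genes separated so was not counted. The share of genes called higher was 30.9% of 15686, and the members' median log2 fold change was 0.87 against -0.00 over all genes. The normalisation assumes that most genes are unchanged and so holds the median over all genes at about no change. A change shared by most mRNAs would not show, here or in the IPs.

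BTG2 had 43.5, 40.01, 45.3 and 36.5 CPM with control siRNA and 88.4, 85.4, 105 and 78.5 with CNOT1 siRNA, so that its lowest knockdown library lay far above its highest control library. The log2 fold change was 1.13 (SE 0.09, edgeR adjusted p = 4.32e-08), above that of 97.7% of genes tested. TOB2 went from 52.9, 47.3, 52.4 and 46.3 CPM to 102, 111, 102 and 95.3, a log2 fold change of 1.06 (SE 0.06, edgeR adjusted p = 4.84e-09). TOB2 thus matched BTG2 in size with a smaller spread.

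TOB1, the other TOB protein, was lower to begin with, at 30.3, 27.6, 27.0 and 26.8 CPM in control cells and 54.2, 53.9, 46.4 and 47.6 with CNOT1 siRNA. Its log2 fold change was 0.87 (SE 0.07, edgeR adjusted p = 4.32e-08). BTG3 rose from 57.5, 53.9, 58.9 and 59.1 CPM to 89.0, 86.0, 101 and 91.5, a log2 fold change of 0.69 (SE 0.06, edgeR adjusted p = 2.1e-07). BTG1 changed least within the family. It was at 61.0, 59.0, 62.1 and 66.1 CPM with control siRNA and 97.2, 83.0, 95.9 and 82.6 with CNOT1 siRNA (log2 0.55, SE 0.07, edgeR adjusted p = 4.42e-06). All 5 calls held in each of 14 alternative analyses, with log2 fold changes between 0.50 and 0.58 for BTG1 and between 1.03 and 1.18 for BTG2.

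In subpolysomal RNA the same knockdown left BTG2 and BTG3 within the spread of control libraries. BTG2 had 57.3, 63.5, 46.8 and 48.6 CPM with control siRNA and 56.4, 56.9, 60.0 and 45.6 with CNOT1 siRNA, and the values were intermixed (log2 0.05, SE 0.12, edgeR adjusted p = 0.778). BTG3 had 64.7, 64.2, 47.0 and 58.4 CPM against 63.0, 63.8, 61.2 and 56.1 (log2 0.09, SE 0.11, edgeR adjusted p = 0.553). Neither mRNA thus showed in the subpolysomal pool the difference it had in input RNA, and whether the effects in input and subpolysomal RNA differ was not tested.

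BTG1 rose in subpolysomal RNA, from 63.1, 72.7, 58.2 and 68.1 CPM to 90.7, 93.2, 95.0 and 78.1 with no overlap (log2 0.48, SE 0.10, edgeR adjusted p = 0.00793). TOB2 also passed, at 61.7, 58.9, 69.2 and 80.8 CPM against 87.3, 78.5, 92.5 and 105 (log2 0.45, SE 0.14, edgeR adjusted p = 0.0371). The groups overlapped, since control replicate 4 lay above CNOT1 siRNA replicate 2, and the call was lost in edgeR without control replicate 1 (adjusted p = 0.0642) or 2 (0.0510), without CNOT1 siRNA replicate 1 (0.0594), 3 (0.0761) or 4 (0.0979), and in a single fit of all 24 gradient libraries (0.167). TOB1 had 48.6, 59.3, 39.9 and 51.2 CPM with control siRNA and 63.6, 86.3, 49.3 and 65.0 with CNOT1 siRNA. Its log2 fold change of 0.44 (SE 0.17) missed the threshold (edgeR adjusted p = 0.0676) but passed with the replicate block (log2 0.43, edgeR adjusted p = 5.88e-05), and each of the 4 same-numbered pairs of libraries was higher with CNOT1 siRNA. TOB1 passed also without control replicate 2 (edgeR adjusted p = 0.0375) or CNOT1 siRNA replicate 3 (0.0302). In all, 2 of 5 members were higher, against 12.6% of 15823 genes, and 3 of 5 with the block, against 27%.

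In polysomal RNA as labelled no member passed. Of 14474 genes 0% passed too (edgeR; before adjustment 38 genes were higher and 61 lower at p below 0.05; 0 with DESeq2). The members' log2 differences were 0.21 for BTG1, 0.47 for BTG2, 0.31 for BTG3, 0.60 for TOB1 and 0.57 for TOB2 (SE 0.16 to 0.36, edgeR adjusted p = 0.889 each). BTG2 stood at 54.6, 54.2, 137 and 43.7 CPM in the libraries labelled control siRNA and at 115, 117, 58.0 and 113 in those labelled CNOT1 siRNA, so that the replicate 3 library labelled control siRNA lay above every library labelled CNOT1 siRNA, and that labelled CNOT1 siRNA lay far closer to the other control libraries than to its own group. TOB2 was at 55.0, 45.9, 112 and 45.5 CPM against 114, 126, 49.9 and 94.8.

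Without both polysomal libraries of replicate 3, all 5 members were higher with CNOT1 siRNA, as were 21.8% of 14514 genes. TOB2 then had a log2 fold change of 1.19 (SE 0.12, edgeR adjusted p = 0.000179), BTG2 of 1.17 (SE 0.10, edgeR adjusted p = 8.27e-05) and TOB1 of 1.01 (SE 0.09, edgeR adjusted p = 8.47e-05). BTG3 and BTG1 were again the lower ones, at 0.70 (SE 0.08, edgeR adjusted p = 0.000231) and 0.44 (SE 0.08, edgeR adjusted p = 0.00181). BTG1 stood at 75.2, 79.1 and 77.8 CPM in the remaining control libraries and 109.9, 99.9 and 106 in the remaining CNOT1 siRNA libraries. BTG3 stood at 62.4, 63.5 and 64.9 CPM against 97.8, 105 and 109, and TOB1 at 26.6, 26.8 and 25.2 against 54.9, 54.4 and 50.3. None of these groups overlapped, and the share of all genes that separate in this way was not counted. The polysomal, subpolysomal and input comparisons used different libraries.

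**Figure D4:**
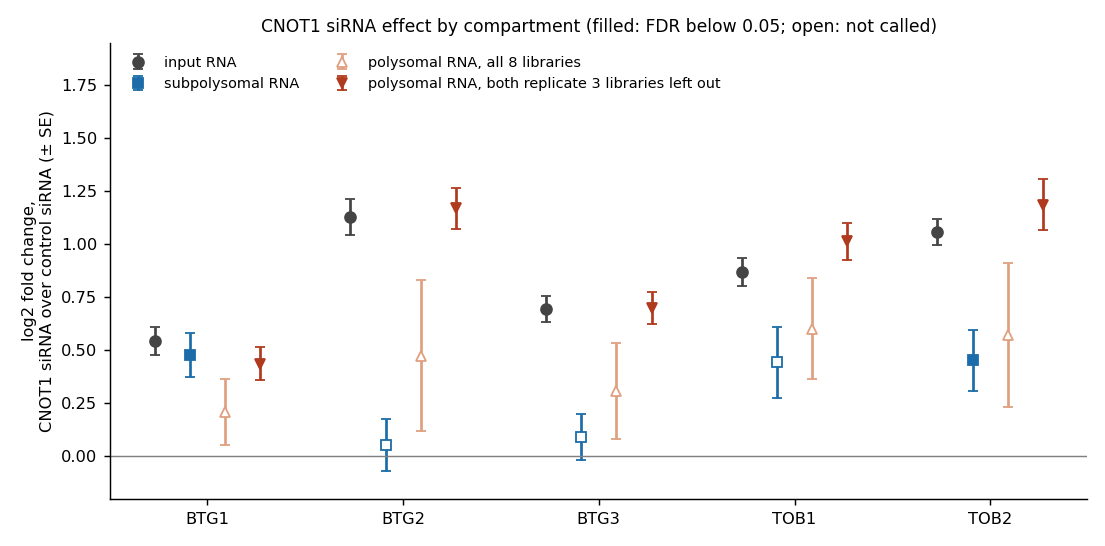
Log2 fold change of CNOT1 siRNA over control siRNA (y axis, bars are 1 SE) for the 5 members (x axis) in input, subpolysomal and polysomal RNA, the last with all 8 libraries and without both libraries of replicate 3; filled symbols passed an edgeR adjusted p of 0.05. In input RNA the values run from 0.55 to 1.13, and BTG2 and BTG3 lie near 0 in subpolysomal RNA.

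Polysomal and subpolysomal RNA of the same siRNA were compared to ask where each mRNA sat in the gradient relative to other mRNAs. CPM are shares of each pool, so that the ratio does not give the part of an mRNA found on polysomes. mRNAs carrying many ribosomes sediment in the polysomal fractions, and free or lightly loaded mRNAs above them. The libraries are those of the preceding comparisons. In control cells TOB1 was the member called lower in polysomal RNA, with a log2 ratio above that of 30.7% of genes. It had 48.6, 59.3, 39.9 and 51.2 CPM in subpolysomal RNA and 26.6, 26.8, 47.5 and 25.2 in polysomal RNA, where only the library labelled replicate 3 reached the subpolysomal range (log2 polysomal over subpolysomal -0.74, SE 0.20, edgeR adjusted p = 0.00622). It was lower in polysomal RNA in all 16 alternatives, together with 34.9% of 15500 genes. The other members did not pass, at log2 values of 0.29 for BTG1, 0.33 for BTG2, 0.28 for BTG3 and -0.16 for TOB2 (edgeR adjusted p = 0.0783 to 0.598). Without both polysomal libraries of replicate 3, BTG2 changed sign to -0.12, BTG1 was at 0.21 and BTG3 at 0.09, none of them past the threshold (edgeR adjusted p = 0.0888 to 0.497). In that setting TOB1 was at -0.95 (SE 0.13, edgeR adjusted p = 0.000123) and TOB2 passed as lower too, at -0.50 (SE 0.15, edgeR adjusted p = 0.0115), against 36.8% of genes. BTG1 passed as higher without subpolysomal control replicate 2 (log2 0.42, edgeR adjusted p = 0.0461).

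With CNOT1 siRNA, BTG2 and BTG3 were higher in polysomal than in subpolysomal RNA. BTG2 had a log2 ratio of 0.81 (SE 0.19, edgeR adjusted p = 0.00211) and BTG3 of 0.55 (SE 0.16, edgeR adjusted p = 0.00717), against 32.4% of 15654 genes called higher. Without both polysomal libraries of replicate 3 they were at 1.02 (SE 0.12, edgeR adjusted p = 3.28e-06) and 0.72 (SE 0.11, edgeR adjusted p = 3.93e-05), with 34.5% of genes called higher. BTG1 (log2 0.07) and TOB2 (0.02) did not pass (edgeR adjusted p = 0.663 and 0.946). Leaving out both polysomal libraries of replicate 3 put them at 0.19 and 0.25, and in a single fit of the remaining gradient libraries, chosen after seeing the data, both passed as higher (BTG1 log2 0.25, edgeR adjusted p = 0.0162; TOB2 log2 0.31, edgeR adjusted p = 0.0204). TOB1 remained lower in polysomal RNA, at -0.53 (SE 0.19, edgeR adjusted p = 0.0256), with 34% of genes called lower. That call was lost in edgeR without both polysomal libraries of replicate 3 or the CNOT1 siRNA library of them alone (log2 -0.36, adjusted p = 0.0559), without subpolysomal CNOT1 siRNA replicate 2 (log2 -0.36, adjusted p = 0.107), and in the single fit of the remaining gradient libraries (log2 -0.30, adjusted p = 0.0506).

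The change in polysome association between the siRNAs was tested as the difference between the effects of CNOT1 siRNA in both pools, polysomal less subpolysomal. The ratios below join libraries by replicate number. Deviations of same-numbered polysomal and subpolysomal libraries from their group means had r of -0.44 to 0.19 with control siRNA. With CNOT1 siRNA r was -0.23 to -0.12, so that the numbers do not show a pairing of these pools. Per gradient, the log2 polysomal/subpolysomal ratio of BTG2 was -0.07, -0.23, 1.54 and -0.15 with control siRNA and 1.02, 1.03, -0.05 and 1.30 with CNOT1 siRNA. Both ratios of replicate 3 stood with the opposite group, although only their polysomal libraries, not the subpolysomal ones, held CNOT1 counts against the labels. The ratio of BTG3 was -0.05, -0.02, 1.22 and 0.15 against 0.63, 0.71, 0.04 and 0.95, in the same arrangement. TOB1 stayed below 0 in 3 control gradients (-0.86, -1.13 and -1.01, with 0.25 in replicate 3) and in all 4 with CNOT1 siRNA (-0.21, -0.66, -0.61 and -0.37). The ratio of TOB2 spread widely between gradients of the same siRNA, from -0.82 to 0.69 in control gradients and from -0.88 to 0.68 in CNOT1 siRNA gradients. BTG1 changed little outside replicate 3, at 0.25, 0.12, 0.86 and 0.19 against 0.28, 0.10, -0.31 and 0.44. The median ratio of all genes lay between -0.11 and 0.02 in each gradient.

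No member's shift passed with all 16 libraries, against 0.576% of 16506 genes called higher (95 genes, and 13 to 385 when each library was left out). The log2 shifts were 0.46 (SE 0.40) for BTG2, 0.26 (SE 0.27) for BTG3, 0.20 (SE 0.31) for TOB1, 0.15 (SE 0.38) for TOB2 and -0.23 (SE 0.20) for BTG1, with edgeR adjusted p between 0.612 and 0.885. Without both polysomal libraries of replicate 3, BTG2, TOB2 and BTG3 shifted toward polysomes, as did 5.47% of 16805 genes. BTG2 shifted by 1.16 (SE 0.18, edgeR adjusted p = 0.00240), TOB2 by 0.77 (SE 0.19, edgeR adjusted p = 0.0218) and BTG3 by 0.65 (SE 0.16, edgeR adjusted p = 0.0180). TOB1, at 0.61 (SE 0.22), did not pass (edgeR adjusted p = 0.0991), and BTG1 was at -0.00 (SE 0.14). TOB1 passed with those libraries left out when the replicate number was a block (log2 0.62, edgeR adjusted p = 0.00852) or when all remaining gradient libraries were fitted at once (log2 0.61, edgeR adjusted p = 0.0320), both chosen after seeing the data.

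**Figure D5:**
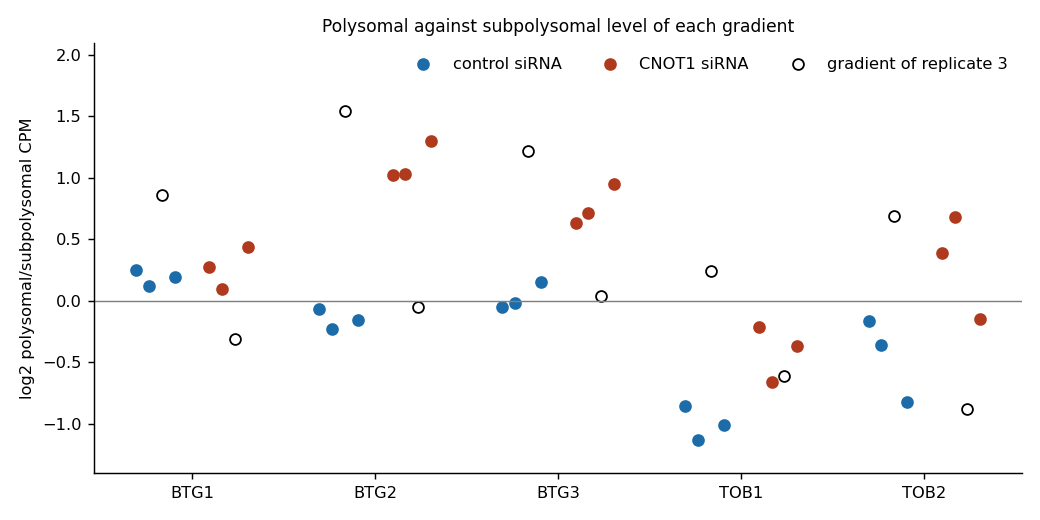
Log2 ratio of polysomal to subpolysomal CPM (y axis, pseudocount 0.5 CPM) in each gradient for the 5 members (x axis), with control siRNA in blue, CNOT1 siRNA in red and the gradients of replicate 3 as open points. Filled red points of BTG2 and BTG3 lie at 0.63 to 1.30, above the filled blue points at -0.23 to 0.15, and TOB1 is below 0 in all filled points.

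TNRC6A and TNRC6B (GW182 proteins) link Argonaute to Ccr4-Not, and their knockdown asks which mRNAs respond to loss of miRNA-mediated silencing. BTG3 had the largest difference of the family. It was at 46.3 and 69.6 CPM with control siRNA and at 119 and 132 with TNRC6A/B siRNA, without overlap, a log2 difference of 1.11 (SE 0.27) that was above that of 99.6% of 14064 genes. With 2 libraries a group it did not pass (unadjusted p = 0.0103, edgeR adjusted p = 1.00), and neither did any other gene, 0% of those tested (edgeR; before adjustment 173 were higher and 116 lower at p below 0.05; with DESeq2 6 were higher and 2 lower). TOB2 was at 56.2 and 31.7 CPM against 79.7 and 53.9, so that the groups overlapped (log2 0.60, SE 0.38). BTG2, at 58.9 and 46.9 CPM against 77.4 and 65.5 (log2 0.43, SE 0.24), and TOB1, at 24.2 and 23.2 against 27.0 and 28.6 (log2 0.23, SE 0.23), did not overlap between groups. With 2 libraries a group such separation, that of BTG3 included, says little, and how many of all genes separated was not counted. BTG1 differed by less than the spread within either group, at 49.1 and 54.4 CPM against 49.1 and 55.5 (log2 0.01, SE 0.22). With the replicate number as a block instead, BTG3 (edgeR adjusted p = 1.93e-09) and TOB2 (edgeR adjusted p = 0.00698) passed. In that fit 520 genes were higher and 243 lower, but 2 libraries a group cannot settle whether the numbers pair. The BTG3 sites matched by hsa-miR-17-5p and hsa-miR-18a-5p are printed above, and whether they bear on the BTG3 difference was not tested.

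Genes that act with the family were described from fixed lists in the same comparisons. Of 17 genes of the deadenylation machinery, 8 rose and 7 fell in input RNA with CNOT1 siRNA (median log2 fold change 0.08 against -0.00 over all genes, of which 30.9% rose and 30% fell). Besides CNOT1 itself (-4.07), CNOT6, a deadenylase, fell by 0.74 on the log2 scale, while its paralog CNOT6L (0.73) and the subunit CNOT3 (0.48) rose. CNOT7 and CNOT8, named here because BTG and TOB proteins bind them, moved in opposite directions, at -0.54 and 0.37. Of 24 short-lived regulatory mRNAs, 11 rose and 4 fell (median 0.33), led by EGR1 (2.95) and JUN (0.94), transcription factors of the immediate early response, with KLF10 (-0.57) and KLF6 (-0.55) lowest. Of 17 growth arrest genes and p53 targets, 7 rose and 8 fell (median -0.17), with SESN2 (0.85) and PLK2 (0.76) highest and TP53INP1 (-1.30) and ZMAT3 (-0.73) lowest. BTG2, itself a p53 target, rose while the others went both ways.

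In most of the other comparisons called genes of a list again went both ways. In the IPs, however, the short-lived mRNAs were mainly higher where called. Their median log2 fold change was 0.20, 0.30 and 0.36 in the eIF4A1, eIF4A2 and DDX6 IPs, against 0.04, 0.01 and 0.01 over all genes. Over all genes, 26.1%, 24.5% and 22.7% were higher and 26.5%, 25.8% and 23.3% lower in the eIF4A1, eIF4A2 and DDX6 IPs. Of the 17 genes of the deadenylation machinery, 6, 7 and 6 were higher and 7, 6 and 6 lower in that order of IPs, with PABPC1, the partner of TOB proteins, highest in the DDX6 IP (log2 2.46). Of the 24 short-lived mRNAs, 10, 7 and 5 were higher and 2, 2 and 1 lower, with PPP1R15A among the highest in each IP (log2 1.09, 0.80 and 0.95), and of the 17 growth arrest genes 5, 5 and 6 were higher and 5, 4 and 3 lower. In subpolysomal RNA, CNOT1 siRNA raised 3, 2 and 2 genes of these lists in that order (deadenylation, short-lived, growth arrest) and lowered 4, 5 and 1, where 12.6% of all genes were higher and 15.2% lower. Polysomal over subpolysomal RNA was higher for 7, 2 and 7 and lower for 4, 7 and 4 in control cells (30.3% and 34.9% of all genes), and higher for 6, 5 and 9 and lower for 4, 6 and 3 with CNOT1 siRNA (32.4% and 34%). With both polysomal libraries of replicate 3 left out, these counts were 9, 2 and 8 higher and 5, 11 and 4 lower in control cells (31% and 36.8% of all genes), and 6, 5 and 10 higher and 6, 5 and 3 lower with CNOT1 siRNA (34.5% and 36.3%). In the shift PABPC1 alone passed (log2 1.35), and without both libraries it was at 1.38 and 1 gene of the deadenylation machinery and 3 short-lived mRNAs were higher and 3 genes of the deadenylation machinery lower (5.47% and 3.97% of all genes). In polysomal RNA as labelled and in the TNRC6 experiment no listed gene passed in edgeR. Without both libraries CNOT1 siRNA raised 8, 9 and 7 of the listed genes in polysomal RNA and lowered 4, 3 and 8 (21.8% and 18.9% of all genes). All 40 libraries hold the antisense gene TOB1-AS1, which overlaps TOB1 over 281 nt of exon, at 0.186 to 2.28 CPM, far under TOB1. BTG1 shares 503 nt of exon with LINC01619 on the same strand and 274 nt with BTG1-DT on the opposite strand, and BTG3 shares 326 nt with BTG3-AS1 on the opposite strand. These 3 names are not among the symbols counted, and how the counting treated such overlaps is not given in the sources used here.

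Patterns across the libraries were compared as Pearson's r of log2(CPM + 0.5) centred on the mean of each experiment, over 40 libraries and 10907 genes, as a description. Points share gradients, total RNA and depth, and they include the polysomal libraries of replicate 3. Within the family r ran from 0.356 (BTG3 with TOB1) to 0.822 (BTG2 with BTG3). The 3 genes most like BTG1 were E2F5 (0.902), TBPL1 (0.897) and RASSF5 (0.882), and those most like BTG2 were IFRD1 (0.909), HBEGF (0.884) and MICB (0.882). BTG3 was closest to CDC37L1 (0.924), NKIRAS1 (0.905) and COQ10B (0.864), TOB1 to PLEKHF2 (0.911), WDR20 (0.901) and IL12A (0.899), and TOB2 to SEMA4C (0.936), PISD (0.920) and C6orf136 (0.914). No member was among the 3 genes closest to another member.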

How the data were processed

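The authors deposited counts, 1 integer per gene symbol and library, made per the labels and the study's methods from stranded poly(A)-selected libraries with bcl2fastq 2.0, TopHat2 on hg19 and htseq-count (strand option not given in the sources used here). A deposited summary of the authors' own IP tests (log2 fold changes, p-values, FDR) was not used. Members, lists and tests were chosen with earlier results of these data known, and the miRNAs after the value of BTG3 was seen.

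Each comparison was fitted with edgeR 4.0.16 (limma 3.58.1, R 4.3.3) by quasi-likelihood F-tests on group means with filterByExpr and TMM factors, over the 12 RIP-Seq libraries, the 8 gradient libraries compared (16 for the shift) or the 4 TNRC6 libraries. Genes passed at a two-sided Benjamini-Hochberg adjusted p below 0.05 over all genes tested. The SE is the log2 fold change divided by the root of F. All 5 members passed the filter on low counts in every fit. CPM use TMM-adjusted totals of an experiment, so that levels are not tested across experiments. The scripts were tested on simulated data. No libraries were duplicates (chi-square per degree of freedom at least 5.49 between any pair of a group). Reads carry no molecular identifiers, so depth gives counting error only.

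Same-numbered libraries deviated together in the RIP-Seq (r = 0.184 to 0.782 over pairs), input (0.195 to 0.358) and subpolysomal (0.586 to 0.736) comparisons, so the numbers were taken to pair these. DESeq2 1.42.0, RLE factors, an unfiltered fit and the replicate block served as alternatives, as did other sets of libraries in the fit and leaving out each library or both polysomal libraries of replicate 3.

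mRNA features came from GENCODE 44 on GRCh37 (the transcript with the longest CDS, then the longest transcript), of which 33177 of 55765 symbols matched at 1 locus, with Biopython 1.88 and MAFFT 7.526 in Python 3.11.15. Genes named are the members, siRNA targets, markers, overlapping genes, the 3 genes closest in pattern and, per list and comparison, up to 2 called genes with the largest rise and fall that reach 10 CPM, some of which are given only as counts. Pattern genes needed a mean of 5 CPM. The sequence of the remaining BTG1 octamer is not reported here.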

Additional observations from a re-analysis of the deposited data

Results flagged for a closer look

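Within groups of 4 libraries, a library stood apart from the other 3 by Dixon's criterion in 6 of 30 gene and group combinations tested. Chance gives about 1 in 20 for a single combination, but these genes were read in the same libraries and the combinations are not independent. All 6 were polysomal libraries of replicate 3, whose CNOT1 counts go against their labels. In the library labelled polysomal control siRNA replicate 3, BTG1 was at 106 CPM (75.2 to 79.1 in the other 3 libraries), BTG2 at 137 (43.7 to 54.6), BTG3 at 110.3 (62.4 to 64.9), TOB1 at 47.5 (25.2 to 26.8) and TOB2 at 112 (45.5 to 55.0). In the library labelled polysomal CNOT1 siRNA replicate 3, BTG2 was at 58.0 CPM (113 to 117 in the other 3). CNOT1 itself was at 28.3 CPM in the former and 631 in the latter. Whether the labels of these libraries were exchanged was not tested.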

How the results depend on the processing

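Of the recomputed member results, 780 kept their direction and side of the threshold, 48 newly passed, 22 no longer passed and 20 changed sign, all of them values that passed in neither fit. In control polysomal against subpolysomal RNA, BTG2 turned to -0.12 without both polysomal libraries of replicate 3, -0.078 in the single fit of the remaining libraries and -0.16 with the replicate block on these, and TOB2 with CNOT1 siRNA turned to -0.049 with the replicate block. All 5 calls in input RNA held in every alternative, as did those of BTG1 and BTG2 in the 3 IPs, BTG3 in the DDX6 IP, BTG1 in subpolysomal RNA, TOB1 in polysomal against subpolysomal RNA of control cells, and BTG2 and BTG3 in that comparison with CNOT1 siRNA. With the replicate block, members called went from 3 to 5 in the eIF4A1 IP and from 1 to 2 between eIF4A2 and DDX6. In the TNRC6 experiment they went from 0 to 2. Same-numbered libraries deviated together there (r = 0.862), but with 2 libraries a group both pairs give the same r, which cannot settle the pairing. With the block BTG3 (log2 1.14, edgeR adjusted p = 1.93e-09) and TOB2 (log2 0.63, edgeR adjusted p = 0.00698) passed along with 520 genes higher and 243 lower. The block moved the counts of called genes by more than 1.5 times between eIF4A2 and eIF4A1 (170 higher and 15 lower to 1245 and 1521), between eIF4A2 and DDX6 (1716 and 1969 to 3232 and 3842), between DDX6 and eIF4A1 (14 and 2 to 1062 and 668) and in subpolysomal RNA (1986 and 2408 to 4279 and 4936), and beyond the calls given it changed that of no other member. DESeq2 called 541 higher and 159 lower between eIF4A2 and eIF4A1, 359 and 182 between DDX6 and eIF4A1, and 271 and 307 in the polysome shift (95 and 62 with edgeR). Without both polysomal libraries of replicate 3, members called went from 0 to 5 in polysomal RNA, from 1 to 2 in polysomal against subpolysomal RNA of control cells and from 0 to 3 in the shift. A single fit of all gradient libraries but these, added after seeing the data, gave 5, 3 and 4, and the block without them 5, 2 and 4. A fit of all 24 gradient libraries gave 2 members in control polysomal against subpolysomal RNA, as did DESeq2, and 1 member in subpolysomal RNA. Leaving out each library gave 0 to 1 members between eIF4A2 and DDX6, 1 to 2 in control polysomal against subpolysomal RNA and 1 to 2 in subpolysomal RNA with CNOT1 siRNA. The other changes of sign came from leaving out libraries, which gave log2 ranges of -0.16 to 0.066 (BTG1) and -0.24 to 0.0058 (BTG3) between eIF4A2 and eIF4A1, -0.095 to 0.10 (BTG1) between DDX6 and eIF4A1, and -0.17 to 0.060 (BTG1) and -0.070 to 0.033 (TOB2) between eIF4A2 and DDX6. In polysomal against subpolysomal RNA they were -0.12 to 0.52 (BTG2) and -0.50 to 0.016 (TOB2) in control cells and -0.16 to 0.25 (TOB2) with CNOT1 siRNA, in the shift -0.0072 to 0.77 (TOB2), and in the TNRC6 experiment -0.070 to 0.14 (BTG1). The causes were not tested.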
